A study of Homo sapiens with 12 samples.

Results

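Darglitazone and pioglitazone, a pair of thiazolidinediones, were compared in 4 cell lines of human acute myeloid leukaemia. The comparison takes every library treated with either drug: 4 with darglitazone and 4 with pioglitazone, or 8 of the 12 libraries of the series. The other 4 received DMSO, the solvent control. Each line (MOLM-14, OCI-AML3, then MV4-11, then KG-1a, the order in which values are listed throughout) gave 1 library per treatment, after 12 h at a drug concentration of 10 µM. MOLM-14 and MV4-11 carry a KMT2A fusion and an internal tandem duplication in FLT3. OCI-AML3 carries mutated NPM1. KG-1a is a CD34+ line that resembles immature progenitors. A cell line was therefore the replicate, and the libraries of one line formed a matched pair. No line had a repeat culture. With the level of each line taken out, the spread behind the p-values of the main test is how far the lines disagree in their treatment differences, DMSO included. Noise between libraries is part of that spread.

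Thiazolidinediones are ligands of PPARγ, a nuclear receptor that pairs with RXR and switches on genes of fat storage and fatty acid use. Both drugs share the thiazolidinedione ring on a benzyl group. Pioglitazone carries an ethylpyridine on an ether chain, and darglitazone a methyl-phenyl-oxazole on a chain with a ketone. Cells make cholesterol from acetyl-CoA through mevalonate and squalene. SREBP transcription factors, held in the endoplasmic reticulum by INSIG proteins when sterols are plentiful and escorted by SCAP to the Golgi when they are scarce, switch on nearly every enzyme of that route and the genes of fatty acid synthesis and desaturation. Leukaemia cells use the same route for membranes and for the lipid anchors of signalling proteins.

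The libraries held between 1.1 and 64.23 M estimated counts. Levels are given as TMM-scaled CPM, that is counts scaled to a common library size, and differences as log2 values, darglitazone minus pioglitazone. The 15 markers of acute myeloid leukaemia and progenitors were expressed: all passed the filter on low counts, their summed level was 1190 to 2450 CPM, and CD34 stood at 599 to 715 CPM in KG-1a against 7.9 or less elsewhere. Markers of other cell types summed to 3.2 to 58.4 CPM outside KG-1a. In KG-1a they summed to 263 to 359 CPM, most of it ITGA2B, at 221 to 304 CPM, while the globin genes HBA1 and HBB were at 0 in all 12 libraries.

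Among the libraries compared, 3 stood apart. The OCI-AML3 pioglitazone library was the one with 1.1 M counts, and an rRNA-derived entry took 6.175% of it. The median level there of the 70 genes that mark KG-1a was 2.082% of that in KG-1a. The same rRNA entry made up 23.537% of the KG-1a pioglitazone library. In the KG-1a darglitazone library genes that mark MV4-11 (7 genes) stood at 4.072% of their MV4-11 level. Fitted differences with an unadjusted p under 0.05 that moved by over 1.5 times without these 3 libraries are given both ways. Fits without these 3 libraries keep both drugs only in MOLM-14 and MV4-11. Ratios within OCI-AML3 or KG-1a use them and have no value without them. Outside these 3, the MV4-11 DMSO library held genes that mark MOLM-14 (4 genes) at 2.187% and OCI-AML3 (12 genes) at 1.51% of their level. The MV4-11 darglitazone library held the MOLM-14 genes at 1.287%.

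Over all genes the drugs were not separated by the main test. edgeR's quasi-likelihood test with the cell line as a block and Benjamini-Hochberg adjustment called 0 of 15424 genes (0.0%) at an adjusted p under 0.05, and the smallest adjusted p was 0.98. At an unadjusted p under 0.05 there were 541 genes, 218 lower with darglitazone (1.41%) and 323 higher (2.09%). DESeq2 called 12 genes, all lower with darglitazone, while limma-voom gave 0 calls and 865 genes at an unadjusted p under 0.05. The median difference over all genes was 0.03. All values that follow are therefore sizes with their errors, and a p that misses the threshold does not show that the drugs act alike.

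The gene-level differences described first were in cholesterol and fatty acid synthesis, and many had a common shape: the pioglitazone library was the highest of its line, and the darglitazone library lay near DMSO. The start-site sequences below belong to HMGCS1, SCD and INSIG1, which had this shape, and to TXNIP, which had the opposite shape outside MOLM-14. SREBF2, whose difference had an interval across 0 (-0.40 to 0.15), is shown for its sterol regulatory element. Each sequence is the stretch of 250 bases upstream of a start annotated by RefSeq on GRCh38.p14, 5′ to 3′ on the gene's strand. Capitals mark the motif searched for on both strands: the CCAAT box (CCAAT, or ATTGG on the other strand), bound by NF-Y, which works beside SREBPs, in HMGCS1, SCD and INSIG1 (the windows of SREBF2 and TXNIP hold 1 and 2 such boxes, left in lower case); the sterol regulatory element TCACNCCAC, bound by SREBPs, in SREBF2; and the CACGAG pair of a carbohydrate response element, bound by MondoA and ChREBP, in TXNIP.
HMGCS1: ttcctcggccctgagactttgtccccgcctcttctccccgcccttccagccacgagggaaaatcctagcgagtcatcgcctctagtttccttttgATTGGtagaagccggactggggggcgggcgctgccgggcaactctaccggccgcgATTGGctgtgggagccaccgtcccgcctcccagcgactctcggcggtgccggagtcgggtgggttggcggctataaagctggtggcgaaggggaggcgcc
SCD: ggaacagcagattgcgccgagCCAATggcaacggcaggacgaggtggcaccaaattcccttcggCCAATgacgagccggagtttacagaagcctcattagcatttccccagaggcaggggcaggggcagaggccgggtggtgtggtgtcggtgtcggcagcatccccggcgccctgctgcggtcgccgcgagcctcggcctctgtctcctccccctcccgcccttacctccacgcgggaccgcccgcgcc
INSIG1: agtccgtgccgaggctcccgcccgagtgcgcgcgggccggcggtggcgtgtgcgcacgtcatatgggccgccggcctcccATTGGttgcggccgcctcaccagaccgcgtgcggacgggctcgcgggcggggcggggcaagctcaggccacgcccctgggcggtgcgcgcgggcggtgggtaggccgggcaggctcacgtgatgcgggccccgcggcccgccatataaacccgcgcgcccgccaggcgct
SREBF2: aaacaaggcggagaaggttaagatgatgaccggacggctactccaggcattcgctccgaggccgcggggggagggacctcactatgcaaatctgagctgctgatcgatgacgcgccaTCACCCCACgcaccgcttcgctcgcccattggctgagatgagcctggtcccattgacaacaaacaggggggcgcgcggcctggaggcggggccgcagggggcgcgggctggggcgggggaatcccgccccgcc
TXNIP: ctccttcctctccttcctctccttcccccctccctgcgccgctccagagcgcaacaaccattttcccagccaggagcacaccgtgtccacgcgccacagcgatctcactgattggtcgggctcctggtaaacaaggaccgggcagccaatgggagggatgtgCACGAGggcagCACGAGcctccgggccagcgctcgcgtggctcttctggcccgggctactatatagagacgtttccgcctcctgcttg
HMGCS1 has this window at chr5:43313413-43313662 (minus strand). HMGCS1 and TXNIP each have 2 windows, of which 1 is shown. SCD has its window at chr10:100346983-100347232, INSIG1 at chr7:155297628-155297877 and SREBF2 at chr22:41832855-41833104, all on the plus strand, and TXNIP at chr1:145996580-145996829 on the minus strand. The CCAAT boxes start 155 and 100 bases before the HMGCS1 start, 229 and 186 before that of SCD, and 170 before that of INSIG1. The element in SREBF2 starts 133 bases before the start, and the CACGAG pair of TXNIP 88 bases before it. A CCAAT box was in 16 of the 24 windows (66.7%) that matched the mevalonate and sterol enzymes, in 17 of the 30 (56.7%) of the fatty acid genes, in 5 of the 14 (35.7%) of the SREBP machinery and in 32.0% of all 35116 windows. TCACNCCAC was in 310 windows (0.883%), in none of those 24, and in 1 of 14 for the SREBP machinery, that of SREBF2. The CACGAG pair was in 2 windows of all. These matches describe the letters only.

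The enzymes from acetyl-CoA to farnesyl and geranylgeranyl diphosphate stood lower with darglitazone than with pioglitazone, with 8 of 9 fitted differences below 0 and a median of -0.49. Of these, 7 had an unadjusted p under 0.05, against 1.41% of all tested genes, and 7 were lower in all 4 lines, against 4.62%. HMGCS1 (chromosome 5, 43289395 to 43313512, minus strand), which joins acetyl-CoA units to HMG-CoA, stood with pioglitazone at 34.4 CPM in MOLM-14, 148 in OCI-AML3, 73.9 for MV4-11 and 283 for KG-1a. With darglitazone it stood at 31.4, 62.1, 25.7 and 91.9 CPM in the same order. The darglitazone library was lower in each pair, by little in MOLM-14, while the ranges of the groups overlap because the lines differ so much in level. The DMSO libraries had 26.4, 42.1, 28.6 and 77.3 CPM, so in MV4-11 the darglitazone value was below the control as well.

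ACAT2, which condenses acetyl-CoA at the first step, differed by -0.67 (SE 0.16). The kinase MVK differed by -0.49 (SE 0.20), but its single-line values were -0.22, -0.06, -1.28 and -0.23, so MV4-11 carries most of it. MVD, the decarboxylase that ends the mevalonate part, had the same unevenness, with -0.01, -0.05, -1.34 and -0.81 in the lines and -0.60 (SE 0.22) in the fit. IDI1, the isomerase, and FDPS, which builds farnesyl diphosphate, differed by -0.45 (SE 0.13) and -0.46 (SE 0.14) and were lower in every line. The kinase PMVK was the member above 0, at 0.27 (interval -0.16 to 0.70), and it was -0.03 without the 3 libraries that stand apart. GGPS1, on the branch to geranylgeranyl groups, differed by -0.14 (interval -0.55 to 0.26), and by 0.02 without MV4-11. Leaving that line out also brought MVK to -0.19, MVD, IDI1 and FDPS to -0.29 each. With its pioglitazone library alone left out MVK was -0.26 and MVD -0.31, and with its darglitazone library alone left out MVK was -0.29.

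From squalene to cholesterol all 13 enzymes had fitted differences at or below 0, with a median of -0.41, and 9 had an unadjusted p under 0.05. In all 4 lines 6 of the 13 were lower. The shares of all tested genes were again 1.41% and 4.62%. FDFT1, which makes squalene, differed by -0.41 (SE 0.12) and SQLE, which oxidises it, by -0.51 (SE 0.15). LSS, the cyclase that closes the sterol rings, stood at 102, 113, 249 and 289 CPM with pioglitazone and 90.0, 69.0, 104 and 181 CPM with darglitazone, lower in each pair, with a difference of -0.73 (SE 0.17). CYP51A1, the demethylase that follows, differed by -0.63 in the fit and by -0.28, -0.47, -1.07 and -0.64 in the lines. MSMO1, for the next methyl groups, and HSD17B7, a ketoreductase, differed by -0.67 (SE 0.23) and -0.64 (SE 0.21). Without MV4-11 MSMO1 was -0.35 and SQLE -0.30, and without its pioglitazone library alone they were -0.39 and -0.29.

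DHCR7 makes cholesterol from its last precursor. It stood at 64.7, 75.5, 143 and 220 CPM with pioglitazone and at 55.9, 50.1, 43.7 and 137 CPM with darglitazone, a difference of -0.86 (SE 0.27, interval -1.47 to -0.26). It was -0.51 without MV4-11 and -0.49 without that line's pioglitazone library. The isomerase EBP differed by -0.38 (SE 0.16), by -0.18 without MV4-11 or its pioglitazone library, and by -0.64 without the 3 libraries. The remaining members had intervals on both sides of 0: SC5D -0.20 (-0.74 to 0.34), NSDHL -0.15 (-0.61 to 0.31), TM7SF2 -0.26 (-0.82 to 0.31) and LBR 0.00 (-0.30 to 0.30). TM7SF2 and LBR encode reductases for the same step. LBR, which is also a protein of the nuclear envelope, stood at 160, 218, 72.7 and 171 CPM with pioglitazone and 160, 206, 80.1 and 165 CPM with darglitazone, close in every pair.

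**Figure D1:**
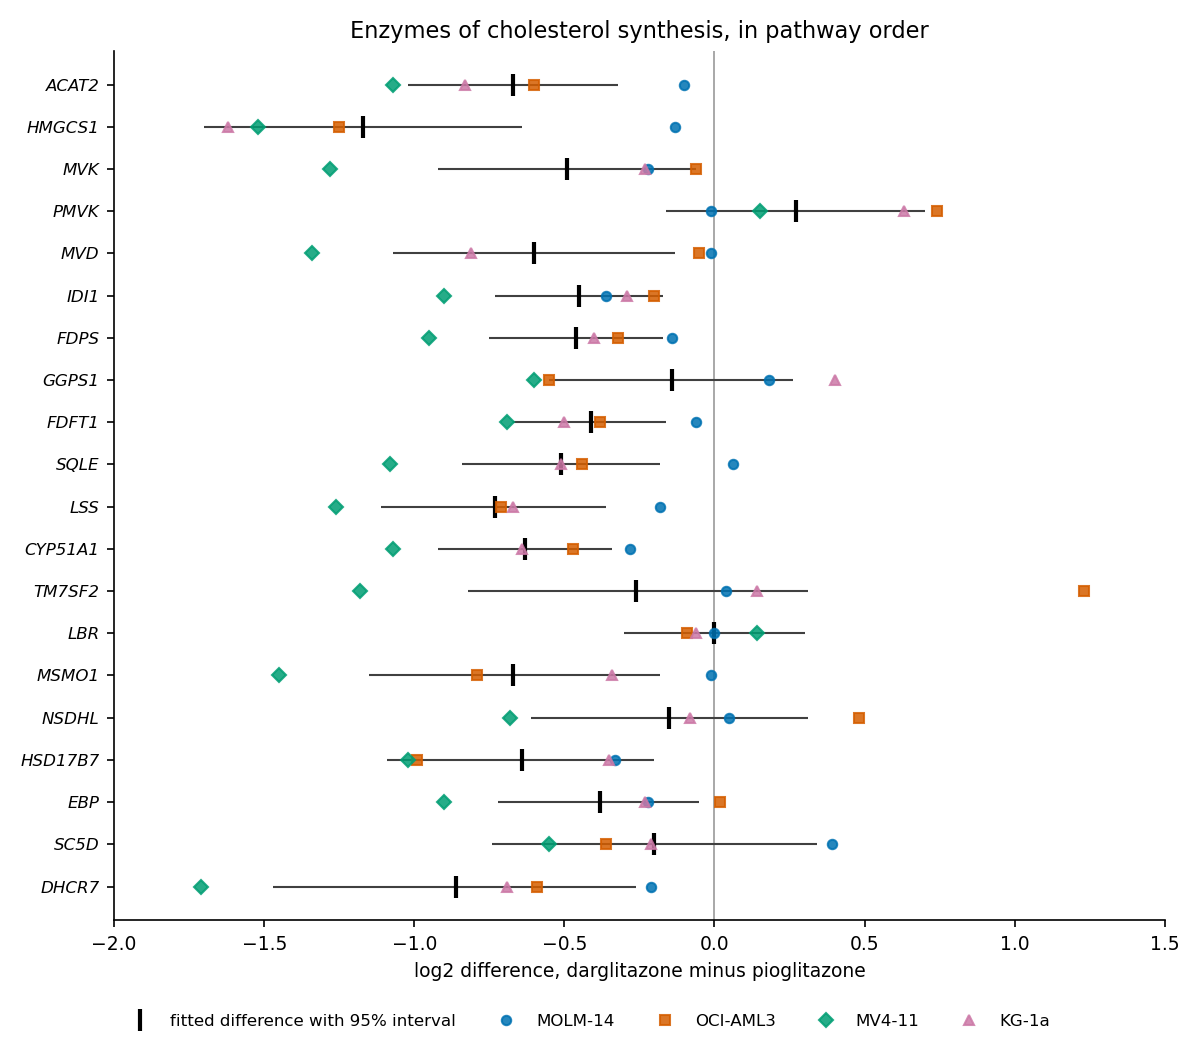
Log2 differences, darglitazone minus pioglitazone, of 8 mevalonate (upper) and 12 sterol (lower) enzymes in pathway order on the vertical axis. Black ticks and bars are the fitted difference with its 95% interval, coloured symbols the ratio in each cell line; MV4-11 lies furthest to the left for most enzymes and MOLM-14 close to 0.

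The size of the difference depended on the line. The median of the mevalonate enzymes was -0.13 for MOLM-14, -0.28 for OCI-AML3, -0.95 for MV4-11 and -0.40 for KG-1a, with an SD of 0.36 between the lines. The sterol enzymes gave -0.06, -0.38, -1.02 and -0.35. The medians of all tested genes were 0.00, 0.17, 0.05 and 0.00, and the share of all tested genes below 0 was 49.6%, 39.4%, 43.4% and 48.6% in the same order. Of the 13 sterol enzymes 8, 9, 12 and 12 were below 0. In sums over the list, the mevalonate enzymes of MV4-11 stood at 592 CPM with DMSO, 1190 with pioglitazone and 592 with darglitazone, whereas MOLM-14 had 557, 624 and 565 CPM. Without the 3 libraries that stand apart, where only MOLM-14 and MV4-11 keep both drugs, the medians were -0.61 and -0.64. Without MV4-11 they were -0.29 and -0.30.

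Set side by side, the medians against the same DMSO libraries were 0.81 with pioglitazone and 0.17 with darglitazone for the mevalonate enzymes, and 0.64 and 0.13 for the sterol enzymes. Both comparisons share the DMSO libraries. Over all genes these medians were -0.02 and 0.01. HMGCS1 had 1.39 (SE 0.24) with pioglitazone and 0.23 (SE 0.23) with darglitazone. In the edgeR fit neither drug had an adjusted p under 0.05 for it against DMSO.

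The regulators of the pathway were split. INSIG1 (chromosome 7, 155297776 to 155310235, plus strand), itself an SREBP target and the protein that retains SREBPs, stood at 133, 230, 459 and 205 CPM with pioglitazone. With darglitazone it stood at 115, 177, 185 and 125 CPM, lower in each pair, a difference of -0.68 (SE 0.19, interval -1.10 to -0.26), and of -0.45 without MV4-11. STARD4, a carrier of cholesterol within the cell, differed by -0.71 (SE 0.20) and was the other member lower in all 4 lines. TMEM97, a sterol-binding protein that acts on NPC1, differed by -0.51 (interval -1.09 to 0.08). Transcripts of the factors themselves had intervals across 0: SREBF1 differed by -0.21 (interval -0.52 to 0.10), SREBF2 by -0.13 (-0.40 to 0.15) and the escort SCAP by 0.20 (-0.11 to 0.51). SREBF2 was 0.02 without MV4-11. Over the 17 tested members of this list the median was -0.12, 12 were below 0, and 2 had an unadjusted p under 0.05. Of all tested genes 6936 of 15424 were below 0, and 1.41% were lower at that p.

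Fatty acid genes followed in part. SCD (chromosome 10, 100347124 to 100364834, plus strand) encodes the desaturase that makes oleate. It stood at 1100, 762, 837 and 513 CPM with pioglitazone and at 947, 369, 354 and 321 CPM with darglitazone, and at 856, 329, 323 and 260 CPM with DMSO. Each darglitazone value lay between its pioglitazone and its DMSO partner, and MOLM-14 had the smallest gap. The difference between the drugs was -0.81 (SE 0.15), with the line values -0.22, -1.05, -1.24 and -0.68.

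The desaturases of polyunsaturated fatty acids, which lie next to each other on chromosome 11 and overlap in the annotation, had a like pattern. FADS2 (61792980 to 61867354, plus strand) stood at 198, 585, 762 and 666 CPM with pioglitazone and 160, 402, 323 and 458 CPM with darglitazone, a difference of -0.66 (SE 0.13). FADS1 (61799625 to 61829318, minus strand) differed by -0.60 (SE 0.14). Both were lower in each pair. The library kit marks strand, but no source used here says whether the counting used it, so reads of the pair may be shared. Upstream of the desaturases, FASN, the fatty acid synthase, differed by -0.46 (SE 0.18) and ACACA, the carboxylase that makes malonyl-CoA, by -0.39 (SE 0.16). ACLY, which supplies cytosolic acetyl-CoA, differed by -0.34 (SE 0.14). Without the 3 libraries ACACA was -0.01 and ACLY -0.53. Without MV4-11 FASN was -0.27 and ACLY -0.12, ACLY was -0.12 also without that line's pioglitazone library alone, and ACACA was -0.22 without the OCI-AML3 one. In OCI-AML3 FASN was 0.13 and ACLY 0.01 higher with darglitazone, and ACACA was 0.10 higher in MOLM-14. The list as a whole had 16 of 22 tested members below 0, a median of -0.20, and 4 members lower in all 4 lines with 6 at an unadjusted p under 0.05. Over all tested genes 6936 of 15424 were below 0, 4.62% were lower in all 4 lines and 1.41% were lower at that p. The list's median was 0.29 with pioglitazone and 0.12 with darglitazone against DMSO. Without MV4-11 the median between the drugs was -0.11.

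**Figure D2:**
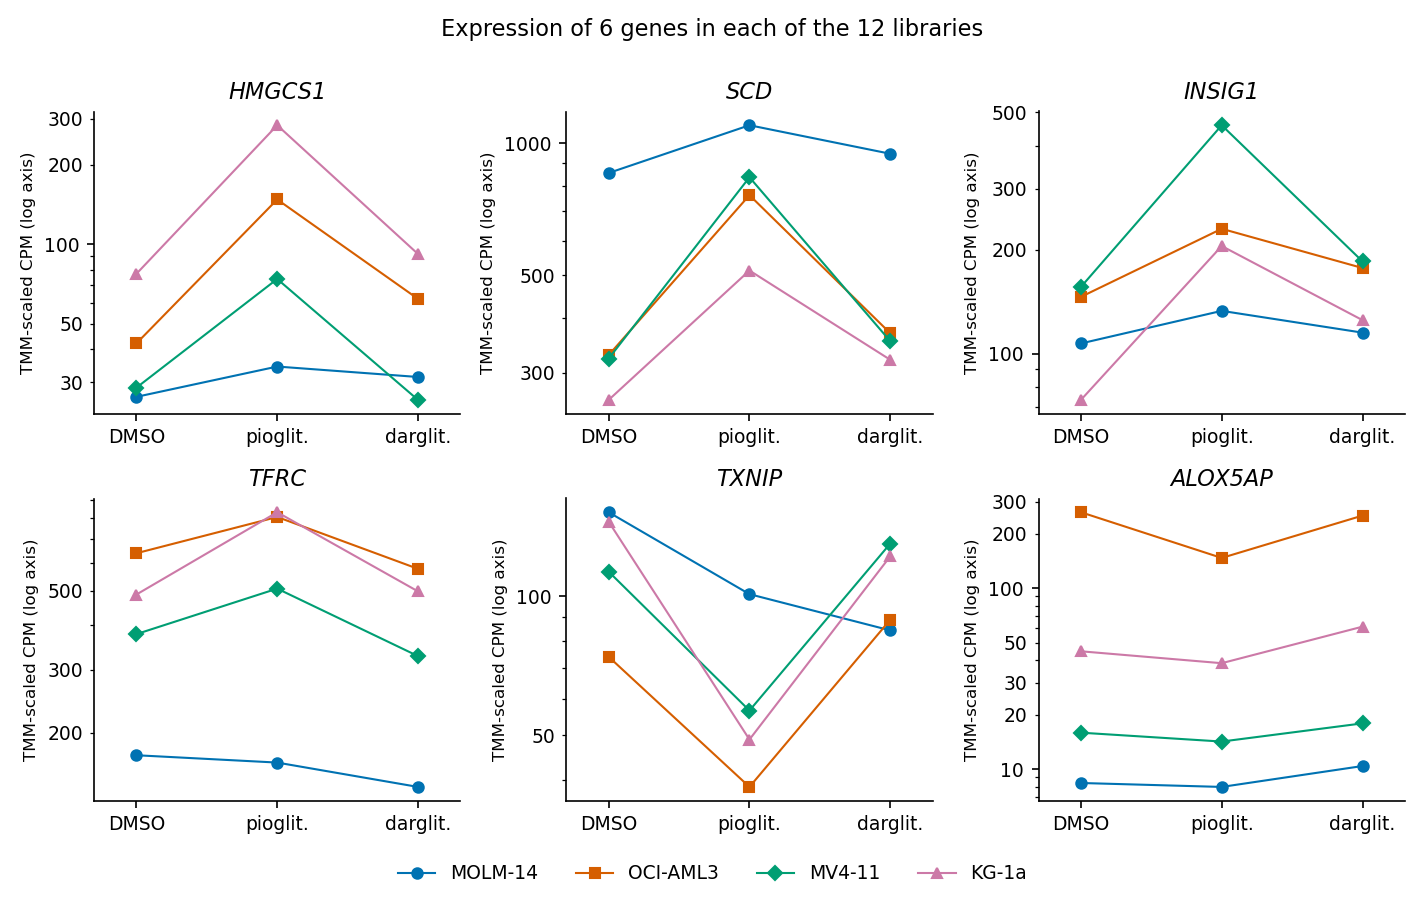
Levels of HMGCS1, SCD, INSIG1, TFRC, TXNIP and ALOX5AP in each of the 12 libraries, in TMM-scaled CPM on a log axis, against treatment; each symbol is 1 library and a thin line joins the libraries of 1 cell line. HMGCS1, SCD and INSIG1 peak with pioglitazone in every line, and TXNIP has its lowest value there in every line but MOLM-14.

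Lists of the targets and receptors of PPARs, the known receptors of both drugs, had medians of 0.01 and -0.03. PPARG itself reached no more than 1.36 CPM and was too low to be tested. PPARA differed by 0.32 (interval -0.23 to 0.87), PPARD by -0.32 (-1.10 to 0.47) and RXRA by -0.03 (-0.31 to 0.25). Of the 15 tested receptors and coregulators none had an unadjusted p under 0.05, and the median was -0.03.

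Of 43 listed PPAR target genes 30 passed the filter; the adipocyte fatty acid carrier FABP4 and the kinase PDK4 were at 0 in all 12 libraries. Those tested split evenly, 15 lower and 15 higher, with a median of 0.01, and 2 in each direction had an unadjusted p under 0.05. Of all tested genes 1.41% were lower and 2.09% higher at that p. The pair below 0 was ACSL3 at -0.49 (SE 0.12) and ACSL4 at -0.31 (SE 0.13), acyl-CoA synthetases of lipid droplets and of arachidonate, each lower in all 4 lines. The pair above 0 was TXNIP, described below, and ACADVL, the very long chain acyl-CoA dehydrogenase of fatty acid oxidation. ACADVL stood at 263, 238, 480 and 82.6 CPM with pioglitazone and 315, 338, 481 and 114 CPM with darglitazone, a difference of 0.30 (SE 0.11), and of 0.14 without the 3 libraries. The DMSO libraries had 244, 230, 405 and 90.3 CPM. The drugs were equal in MV4-11, both above DMSO, and in the other lines darglitazone was the highest of the 3 treatments. The fitted differences were 0.08 with pioglitazone and 0.38 with darglitazone against DMSO. The 95% interval of the difference lay within -0.5 to 0.5 for 12 of the 30, against 29.8% of all tested genes. Among these was ACSL1, a synthetase of long chain acyl-CoA, at 0.16 (-0.11 to 0.43). CPT1A, the gate of fatty acid oxidation, had an MOLM-14 ratio of 0.44 and values of -0.15, 0.02 and -0.17 in the other lines. PLIN2, of lipid droplets, ranged from -0.56 in MV4-11 to 0.32 in MOLM-14.

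**Figure D3:**
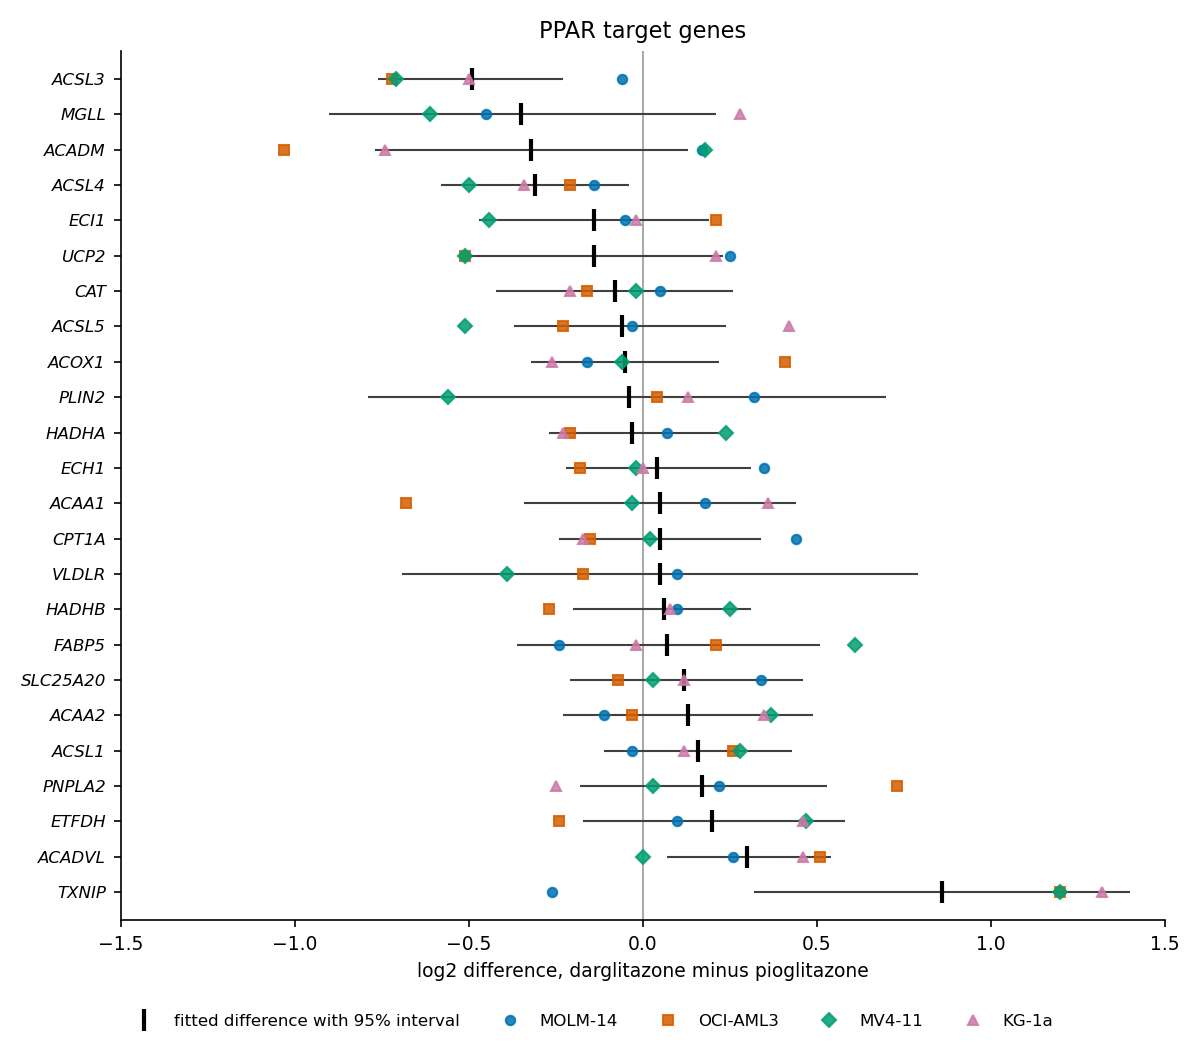
Log2 differences, darglitazone minus pioglitazone, of the 24 PPAR target genes whose interval was narrow enough to draw, sorted by the fitted difference (black tick, bar its 95% interval; coloured symbols the ratio in each line). 2 line values beyond the axis are not drawn; the intervals of ACSL3 and ACSL4 lie below 0 and those of TXNIP and ACADVL above it.

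Transcripts of other proposed targets of thiazolidinediones and of STAT5 also gave intervals around 0. Transcript levels do not measure binding of the drugs. CISD1, which encodes the mitochondrial protein mitoNEET that binds pioglitazone, differed by 0.14 (interval -0.22 to 0.50), and its list with the mitochondrial pyruvate carrier had values from -0.05 to 0.30. STAT5A and STAT5B, transcription factors that act below FLT3, differed by 0.19 (-0.11 to 0.49) and 0.12 (-0.11 to 0.35). For the LXR list, receptors of oxysterols with the sterol exporters they control, the 8 tested genes had a median of -0.11 and none at an unadjusted p under 0.05. The line medians of that list were 0.14, 0.58, -0.33 and -0.19.

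Genes of amino acid supply under ATF4, the factor of the integrated stress response, were mostly lower with darglitazone. Of 38 tested, 29 were below 0, 8 had an unadjusted p under 0.05, all lower, and 6 were lower in all 4 lines. Over all tested genes these were 6936 of 15424, 1.41% and 4.62%. ASNS, asparagine synthetase, stood at 42.8, 163, 34.0 and 14.6 CPM with pioglitazone and at 43.7, 96.7, 17.3 and 8.38 CPM with darglitazone, a difference of -0.61 (SE 0.21), and of -0.34 without the 3 libraries. MOLM-14 shows no gap there, while the other lines do. PSAT1, of serine synthesis, differed by -0.57 (SE 0.20), the glycyl-tRNA synthetase GARS1 by -0.34 (SE 0.13) and the amino acid carrier SLC38A2 by -0.38 (SE 0.11). CBS, of the transsulfuration route, differed by -0.76 (SE 0.22), by -0.45 without MV4-11 and -0.48 without its pioglitazone library, with OCI-AML3 near 0 CPM in every library. SLC7A11, the cystine importer, stood at 26.9, 428, 15.7 and 22.9 CPM with pioglitazone and at 20.5, 310, 8.18 and 9.63 CPM with darglitazone, lower in each pair, a difference of -0.72 (interval -1.60 to 0.17). By line the list's median was -0.06, 0.12, -0.54 and -0.25, so OCI-AML3 did not share the direction. Over the fitted differences it was -0.12, but 0.03 without MV4-11 and 0.01 without that line's pioglitazone library. BCAT1, which breaks down branched chain amino acids and is high in myeloid leukaemia, was outside the list and differed by -0.57 (SE 0.15), lower in each line.

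TFRC (chromosome 3, 196027183 to 196082189, minus strand), the transferrin receptor through which cells take up iron, stood at 165, 805, 507 and 830 CPM with pioglitazone and at 141, 576, 328 and 498 CPM with darglitazone. Each darglitazone library was below its partner, and all but the KG-1a one were below DMSO (173, 637, 378 and 488 CPM). FTL, the ferritin light chain that stores iron, stood at 1350, 2300, 6280 and 1700 CPM with pioglitazone and 1630, 2710, 6210 and 2100 CPM with darglitazone, a difference of 0.19 (SE 0.09), of 0.10 without the 3 libraries and of 0.29 without the MV4-11 pioglitazone library. The whole iron list, these genes included, had a median of -0.03 over 14 genes.

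TXNIP ran the other way. It encodes an inhibitor of thioredoxin and of glucose uptake, and MondoA switches it on when glucose phosphate is plentiful. TXNIP (chromosome 1, 145992435 to 145996600, minus strand) stood at 101, 38.6, 56.5 and 48.9 CPM with pioglitazone and at 84.3, 88.9, 130 and 122 CPM with darglitazone. DMSO gave 152, 73.9, 113 and 145 CPM, so in OCI-AML3, MV4-11 and KG-1a the darglitazone value was near control and the pioglitazone value below it. In MOLM-14 both drugs were below DMSO, and darglitazone was the lower. The difference was 0.86 (SE 0.24, interval 0.32 to 1.40), and 0.56 without the 3 libraries. PDK1, a kinase that inhibits pyruvate dehydrogenase, differed by -0.44 (SE 0.15) and LDHA, lactate dehydrogenase, by -0.20 (SE 0.10). Both were lower with darglitazone in every line. The 28 tested genes of glycolysis had a median of 0.07.

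Higher values with darglitazone were also described. Of the 15424 tested genes, 1313 were higher in all 4 lines (8.51%). The 10 with the smallest p that had a mean level above the minimum were ALOX5AP, GCM1, ARHGAP45, HSPG2, LILRB2, ADGRG5, FGR, FAM76A, ACVR1B and RMRP. All 10 were higher in each line, which a choice by p in a fit blocked on the line favours. With estimated reads of other lines subtracted, the KG-1a ratio of HSPG2 went from 1.28 to -0.99. In OCI-AML3 the pioglitazone value rests on 1 count for GCM1, 2 for LILRB2, 5 for ACVR1B and 8 for FAM76A. ALOX5AP (chromosome 13, 30713478 to 30764426, plus strand), the partner of 5-lipoxygenase in leukotriene synthesis, stood at 7.97, 147, 14.2 and 38.5 CPM with pioglitazone and at 10.4, 252, 17.9 and 61.3 CPM with darglitazone, a difference of 0.54 (SE 0.14). The DMSO values of 8.38, 263, 15.9 and 44.8 CPM lay between the drugs or above both. LILRB2, an inhibitory receptor of myeloid cells, stood at 0.857, 1.75, 1.16 and 2.22 CPM with pioglitazone and 1.39, 5.7, 3.91 and 10.7 CPM with darglitazone, a difference of 1.62 (SE 0.45). DMSO had 1.13, 3.2, 4.04 and 12.6 CPM. GCM1, a transcription factor gene best known in placenta, had 27.6 and 21.8 CPM with DMSO in MV4-11 and KG-1a, and in each of the 4 lines more with darglitazone than with pioglitazone. Its difference of 2.65 (SE 0.67) was 0.96 with all libraries thinned to the depth of the shallowest. Without the 3 libraries ALOX5AP, LILRB2 and GCM1 were 0.26, 1.26 and 2.26.

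FGR, a Src-family kinase of myeloid cells, differed by 0.85 (SE 0.24), and ARHGAP45, a GTPase-activating protein of blood cells, by 0.55 (SE 0.15). ADGRG5, an adhesion receptor, differed by 0.63 (SE 0.18), and ACVR1B, an activin receptor, by 0.74 (SE 0.22). HSPG2, which encodes perlecan, differed by 0.67 (SE 0.19). It was the exception in its relation to the control, with 0.05 for pioglitazone and 0.72 for darglitazone against DMSO. RMRP, the RNA of an endoribonuclease, differed by 0.26 (SE 0.08). FAM76A differed by 0.87 (SE 0.26), with -1.12 for pioglitazone and -0.25 for darglitazone against DMSO. Thinned, FAM76A was 0.14 and ACVR1B 1.21. Without the 3 libraries FGR was 0.45, ARHGAP45 0.25, HSPG2 0.36, RMRP 0.12, ADGRG5 0.49, ACVR1B 0.57 and FAM76A 0.79. Without OCI-AML3 FGR was 0.49 and ARHGAP45 0.34.

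Lists of the myeloid state were mixed, and none of their genes passed the test. Of the monocyte and macrophage genes 12 of 17 were above 0, of the leukaemia and progenitor markers 10 of 15 and of the primary granule genes 10 of 14, beside 8488 of all 15424 tested. The medians were 0.20, 0.27 and 0.28, and 0.03, 0.00 and -0.15 without the 3 libraries. CST7, an inhibitor of granule proteases, was lower with darglitazone in all 4 lines, at -0.53 (SE 0.23) and -0.35 without those libraries. CEBPA, the factor that drives granulocyte and monocyte fate, stood at 490, 145, 320 and 38.7 CPM with pioglitazone and at 507, 279, 342 and 76.6 CPM with darglitazone, against 511, 318, 336 and 84.1 CPM with DMSO. The gap was in OCI-AML3 and KG-1a, the lines whose pioglitazone libraries stand apart. Leaving out the 3 libraries breaks both of these pairs, and the difference then went from 0.47 to 0.01. The part of these libraries in the gap was not tested. CD38, a surface enzyme that rises in maturing progenitors, differed by 0.88 (SE 0.32) and by 0.18 without those libraries. TYROBP, an adaptor of myeloid receptors, differed by 0.47 (SE 0.18) and by 0.10 without them. CTSB, a lysosomal protease, differed by 0.46 (SE 0.16) and by 0.31, and by 0.27 without OCI-AML3. CD38 ran to 1.43 without the MOLM-14 pioglitazone library. In these bulk libraries, fewer cells of a type and less RNA per cell cannot be told apart.

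**Figure D4:**
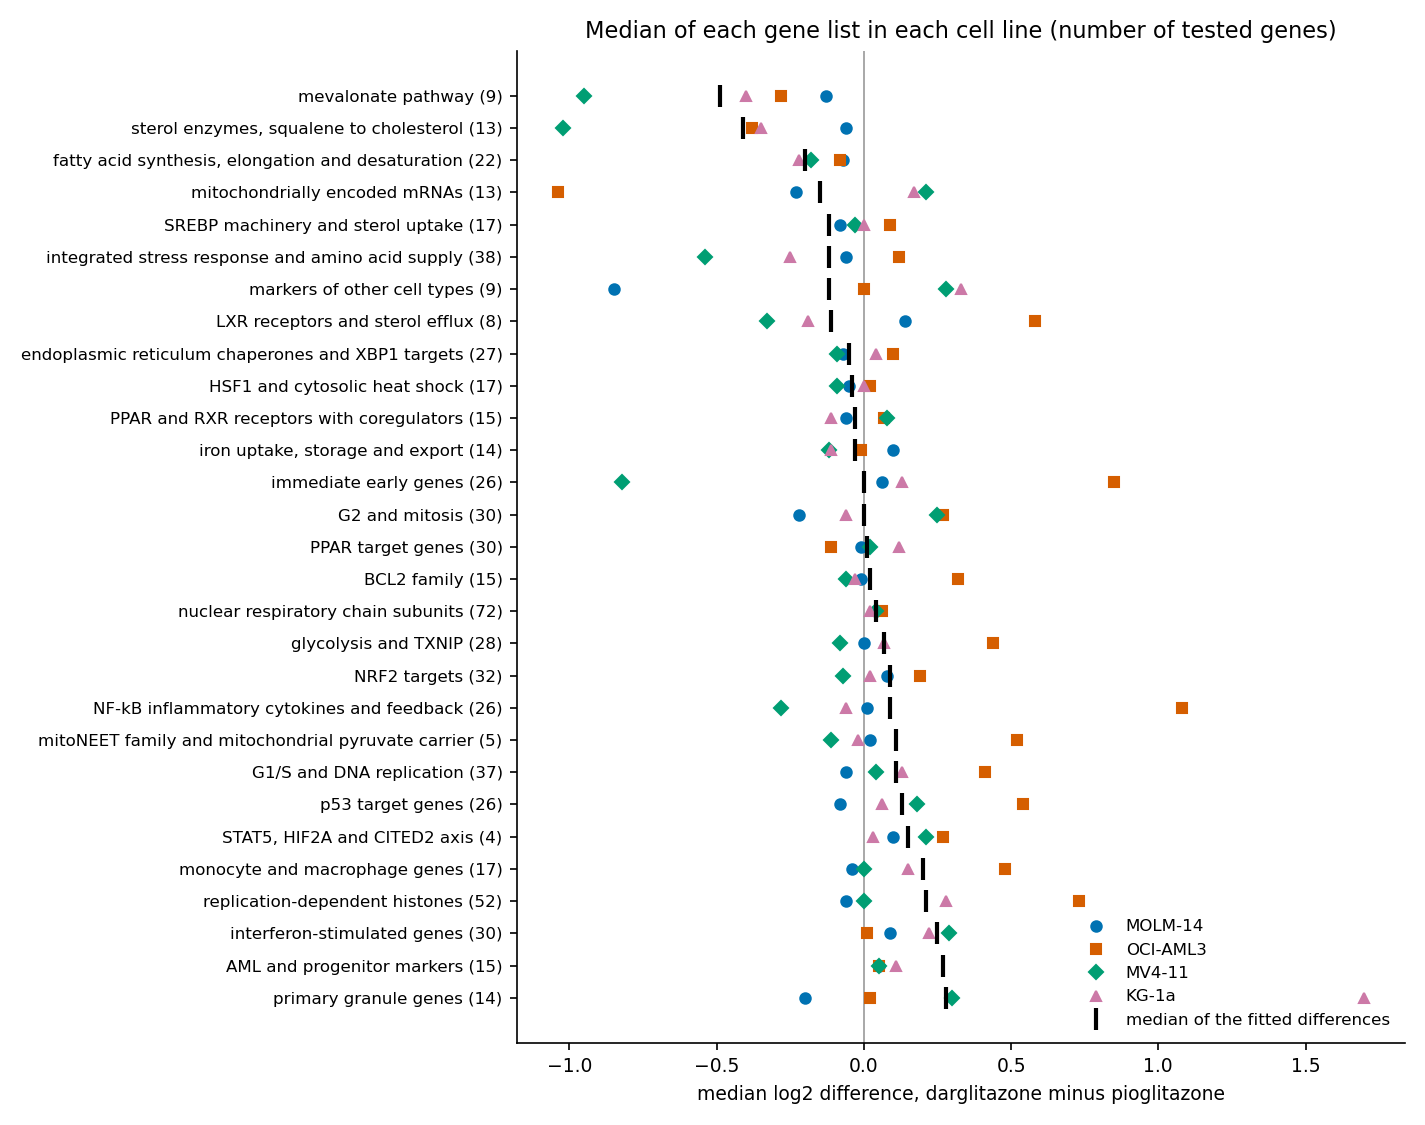
Median log2 difference, darglitazone minus pioglitazone, of each gene list (number of tested genes in brackets), in each cell line (coloured symbols) and over the fitted differences (black ticks). The mevalonate and sterol lists lie lowest, and the OCI-AML3 symbols of the inflammatory and immediate early genes lie far from those of MV4-11.

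By their list medians, inflammatory genes differed between the drugs in opposite directions in OCI-AML3 and MV4-11. The difference between the lines was not tested. These within-line values compare 1 library with another and have no replicate check, and the intervals given cover counting error alone. In OCI-AML3 darglitazone was the higher: the median of the NF-kB list was 1.08, and 18 of 26 tested genes had a log2 ratio above 0.5, against 35.5% of all tested genes in that line. In MV4-11 pioglitazone was the higher: the list's median was -0.28, and 9 of 26 were below -0.5, against 11.9% of all tested genes. Immediate early genes, which answer growth factor and stress signals within minutes, gave 0.85 in OCI-AML3 with 17 of 26 above 0.5, and -0.82 in MV4-11 with 20 of 26 below -0.5. MOLM-14 and KG-1a had medians of 0.01 and -0.06 for the NF-kB list and 0.06 and 0.13 for the immediate early genes. Some members did not reverse between OCI-AML3 and MV4-11. TNFAIP2 (1.64 and 0.13) and DUSP6 (1.63 and 0.32) were higher with darglitazone in both lines, and REL (-1.75 and -0.13) was lower in both.

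TNF, the cytokine, stood in OCI-AML3 at 39.9 CPM with DMSO, 80.7 with pioglitazone and 318 with darglitazone, a log2 ratio between the drugs of 1.98 (1.68 to 2.29). In MV4-11 it stood at 30.3, 97.8 and 26.2 CPM, a ratio of -1.90 (-2.05 to -1.76). The chemokine CXCL8 had the same reversal, with 213 and 459 CPM in OCI-AML3 and 12.3 and 2.87 CPM in MV4-11. EGR1, an immediate early transcription factor, had 14 and 44.9 CPM in OCI-AML3, a ratio of 1.67, and 35.2 and 3.11 CPM in MV4-11, a ratio of -3.45. FOS, a subunit of AP-1, had ratios of 1.59 and -1.76. In MV4-11, TNF, CXCL8 and EGR1 were below control with darglitazone and above it with pioglitazone, while FOS stood at 34.8, 142 and 41.8 CPM. In OCI-AML3 all 4 genes were above control with both drugs. The MV4-11 control library held OCI-AML3 genes at 1.51% of their level. CXCL8 was at 6.84 CPM in that library and at 87.8 CPM with DMSO in OCI-AML3. The part of such reads in the MV4-11 control values was not tested, so the CXCL8 fall below control is not settled. IL1B, for interleukin 1 beta, had 6.14 and 45.6 CPM in OCI-AML3, where the pioglitazone value rests on 7 counts. The chemokine CCL3 had 22.6 CPM with pioglitazone and 0.153 with darglitazone in MV4-11, the latter from 5 counts. CDKN1A, the p53 target that arrests the cell cycle, stood in OCI-AML3 at 351, 297 and 674 CPM, a ratio of 1.18. The OCI-AML3 pioglitazone library is the shallow one, with KG-1a genes at 2.082%; with estimated reads of other lines subtracted the OCI-AML3 medians were 1.07 for the NF-kB list and 0.86 for the immediate early genes. The part of the depth in these ratios was not tested.

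**Figure D5:**
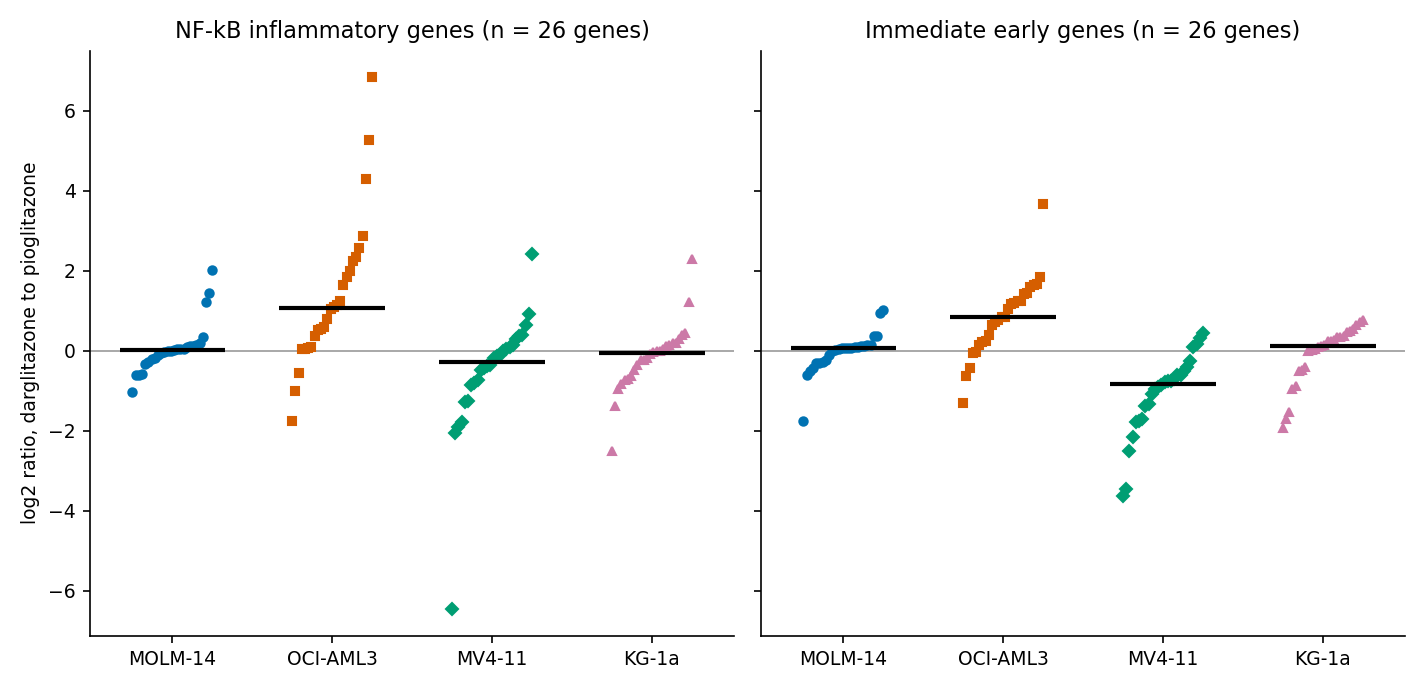
Log2 ratio of darglitazone to pioglitazone for each tested gene of the NF-kB list (left) and of the immediate early genes (right), by cell line on the horizontal axis; each symbol is 1 gene and the black bar the median. The medians of OCI-AML3 are 1.08 and 0.85, and those of MV4-11 are -0.28 and -0.82.

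In KG-1a both drug libraries stand apart, and ratios were large in both directions. Lower with darglitazone were GSG1L, an auxiliary subunit of glutamate receptors, at 50 CPM with pioglitazone and 1.47 with darglitazone, and the entries SNORA63 (27.3 and 0.838 CPM), HMGB1P5 (23.6 and 1.26 CPM, a pseudogene that can share reads with its parent) and RNY1 (36.3 and 5.03 CPM). In OCI-AML3 all of these were also lower with darglitazone. SNORA63 stood there at 86.9 CPM with pioglitazone and 0 with darglitazone, HMGB1P5 at 72.8 and 3.9 CPM and RNY1 at 123 and 1.47 CPM. In MV4-11 all of these were higher with darglitazone. The part of the pioglitazone libraries that stand apart was not tested. Higher in KG-1a were RNVU1-7, at 25.5 CPM with darglitazone and listed at 0 with pioglitazone, and GPM6A, NCALD and TFAP2C. GPM6A, a membrane glycoprotein of neurons, stood at 22 CPM with DMSO, 2.01 with pioglitazone and 257 with darglitazone. NCALD, a calcium sensor, stood at 7.13, 1.11 and 44.2 CPM, and TFAP2C, a transcription factor, at 34.3, 1.51 and 58.4 CPM. GPM6A, NCALD and TFAP2C were below DMSO with pioglitazone and above it with darglitazone in KG-1a. With estimated reads of other lines subtracted, their KG-1a ratios were 7.0, 5.21 and 5.22. GPM6A was lower with darglitazone than with pioglitazone in OCI-AML3 (120 and 2.04 CPM) and in MV4-11 (28.6 and 8.76 CPM). The primary granule genes of myeloid precursors had a KG-1a median of 1.70, with ELANE at 0.101 and 9.42 CPM and AZU1 at 0.201 and 13.4 CPM. That median was -0.37 once estimated reads of the other lines were subtracted. The KG-1a darglitazone library is the one that held MV4-11 genes. In MOLM-14, MPO, the myeloperoxidase of those granules, stood at 64.8, 61.2 and 30.1 CPM, lower with darglitazone by a log2 ratio of -1.02 (-1.21 to -0.84).

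The lists of other processes follow with their medians, beside 0.03 over all genes. NRF2 targets gave 0.09 over 32 genes, genes of G2 and mitosis 0.00 over 30, G1/S and DNA replication 0.11 over 37, and nuclear subunits of the respiratory chain 0.04 over 72, where 59 intervals lay within -0.5 to 0.5. Replication-dependent histone genes gave 0.21 with 50 of 52 above 0 (8488 of all 15424) and none at an unadjusted p under 0.05, with line medians of -0.06, 0.73, 0.00 and 0.28, and -0.12 without the 3 libraries. Interferon-stimulated genes gave 0.25, with 6 of 30 higher in all 4 lines, against 8.51% of all tested genes. Their line medians were 0.09, 0.01, 0.29 and 0.22. With estimated reads of other lines subtracted they were 0.07, 0.06, 0.06 and 0.30, and IFI6, among the 6, was -0.13 in MV4-11. The 13 mRNAs encoded in the mitochondria gave -0.15, with line medians of -0.23, -1.04, 0.21 and 0.17. Without OCI-AML3 that median was 0.11, and without its pioglitazone or its darglitazone library 0.03 and 0.10. Endoplasmic reticulum chaperones with XBP1 targets gave -0.05 over 27 genes and heat shock genes under HSF1 -0.04 over 17. p53 targets gave 0.13, the BCL2 family 0.02, the STAT5 and HIF2A list 0.15, monocyte and macrophage genes 0.20, leukaemia and progenitor markers 0.27 and markers of other cell types -0.12.

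The smallest p-values rested on which line was in the fit. Without MOLM-14, the line with the smallest gaps in the sterol enzymes, edgeR called 4 genes: HMGCS1 at -1.47 (adjusted p 0.00737), SCD at -1.0 (adjusted p 0.0416), TXNIP at 1.25 (adjusted p 0.0319) and the entry AL669918.1, listed at 0 with pioglitazone in OCI-AML3 and MV4-11. With the MOLM-14 pioglitazone library alone left out it called HMGCS1, SCD and AL669918.1. With all libraries thinned to 1.1 M counts it called HMGCS1 at -1.28 (adjusted p 0.00561). Without the KG-1a pioglitazone library it called an ATXN7 entry. AL669918.1 and ATXN7 were named after these values were seen. HMGCS1 ran from -1.47 to -0.80 over every alternative fitted and SCD from -1.0 to -0.66.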

How the data were processed

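RNA of 12 cultures was sequenced from stranded libraries depleted of ribosomal RNA, per the labels' protocols. The authors deposited estimated counts per transcript, 89.8% of them not whole (tolerance 1e-06). The submitters' processing notes name fastp, FastQC, STAR, featureCounts, DESeq2 and GRCh38. The program behind the estimates and its annotation are not given in the sources used here. Transcripts were summed per gene by GENCODE 29 (202941 of 203027 matched, 99.958%) and rounded. edgeR 4.0.16 in R 4.3.3 used filterByExpr (minimum count 10), TMM scaling and a quasi-likelihood test with treatment and cell line, over all 12 libraries, Benjamini-Hochberg adjusted, threshold 0.05. Treatments of a line were paired because they came from the same cell line. Within-line ratios used a prior count of 2, and intervals are 95%. DESeq2 1.42.0 and limma 3.58.1 (voom) were alternatives. The test was checked on simulated counts. Reads of other lines were estimated from genes above 30 CPM in 1 line and under 5% of that elsewhere. Depth ran from 1.1 to 64.23 M counts, and 3 counts, the floor, equal 0.047 to 2.739 CPM. Counting intervals cover counting error only. Named genes were the 10 smallest p-values in each direction with a mean log2 CPM of at least 1, the 4 smallest of each list, preset genes, and within a line the extreme ratios with at least 20 CPM and 50 counts; short lists were described member by member. TYROBP, CTSB, CD38, CEBPA, TNF, IL1B, CXCL8 and FOS come from these lists. TNF, CXCL8 and FOS were not among the 4 smallest p-values of theirs. Members and gene lists were chosen with earlier results of these data known. Promoter sequences are from RefSeq. A few members of the gene lists are counted in the lists but not reported here.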

Additional observations from a re-analysis of the deposited data

Results flagged for a closer look

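In 100 sets of 4 line values (a gene or a list median, darglitazone to pioglitazone), 7 had 1 line far from the other lines, with a gap above the 95% critical value of Dixon's test. Chance alone flags about 1 in 20 such sets. TXNIP had a log2 ratio of -0.26 in MOLM-14 against 1.20 to 1.32 in the other lines. MVK had -1.28 in MV4-11 against -0.23 to -0.06. RXRA had 0.49 in OCI-AML3 against -0.18 to -0.11, ACVR1B had 2.14 there against 0.47 to 0.64, STAT5A had -0.29 there against 0.20 to 0.28, and the BCL2 family had a median of 0.32 there against -0.06 to -0.01. In that line the ACVR1B pioglitazone value of 4.39 CPM rests on 5 counts and the STAT5A value of 13.2 CPM on 15. With estimated reads of other lines subtracted, the STAT5A ratio in OCI-AML3 was 1.25, so its sign there is not settled. The leukaemia and progenitor markers had a median of 0.11 in KG-1a against 0.05 in each other line. With those reads subtracted, the medians were 0.02, 0.28, 0.01 and 0.01 in the order of the lines. The cause was not tested for any of these.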

How the results depend on the processing

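The count of called genes was 0 with relative log expression scaling, scaling on protein-coding genes, limma-voom, the 8 drug libraries only, the 3 libraries left out and other lines' reads subtracted. It was 88 with no low-count filter, 12 with DESeq2 and 1 with all libraries thinned, and ran from 0 to 4 when a line or a drug library was left out. Without the replicate block, that is without pairing by cell line, edgeR called 0 genes and 43 had an unadjusted p under 0.05, against 541 with it. The mevalonate median ran from -0.63 to -0.29 and the sterol median from -0.64 to -0.29 over all alternatives. The fatty acid median was -0.36 when thinned and ran from -0.23 to -0.09 when a line or library was left out. Of 638 list medians from alternatives 594 moved by less than the spread between lines, 40 moved further, and 4 changed sign in 2 lists whose line medians had a common sign. Over all lists, whatever their line medians, 88 values in 20 lists had the opposite sign, with the NF-kB list from -0.26 to 0.31 and the immediate early genes from -0.42 to 0.31. Respiratory chain subunits went to -0.05 without the 3 libraries, -0.00 when thinned and, when 1 was left out, from -0.01 to 0.08. Leukaemia and progenitor markers went to -0.00 with reads subtracted. Of 1561 gene values 1499 kept direction and side of the threshold, 29 gained a call and 33 changed sign, in 12 genes whose main value had an interval across 0. These were PMVK (-0.03) and SCAP (-0.02) without the 3 libraries; SC5D (0.07) and LBR (0.01) when thinned; LBR with no filter and in the 8 drug libraries (0.00 in both); PPARD (0.03) and PLIN2 (0.09) with limma-voom; and CPT1A (-0.01) without the block. When 1 line or library was left out, GGPS1 ran from -0.31 to 0.02, TM7SF2 from -0.43 to 0.27, LBR from -0.09 to 0.11, NSDHL from -0.31 to 0.09, SREBF2 from -0.27 to 0.02, RXRA from -0.16 to 0.04, CPT1A from -0.10 to 0.17 and PLIN2 from -0.26 to 0.37. The 26 within-line ratios stayed within their counting intervals with a prior count of 0.5. Except where an alternative tests other genes or fewer samples, the cause was not tested. At 1.1 M counts, 3 counts equal 2.739 CPM, so low genes of the OCI-AML3 pioglitazone library are not resolved.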
